A study of Mus musculus with 6 samples.

Results

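The 54 genes described here encode proteins that make, store, export, take up or burn fatty acids and cholesterol. They were chosen by name for these roles, with earlier results of the same data known, out of 21896 protein-coding genes in a RefSeq table of mouse build GRCm38.p6, and all 54 were found in it. Of them, 23 act in synthesis (12 in fatty acid synthesis, 5 in glycerolipid assembly and 6 in sterol regulation and synthesis), 18 in breakdown (4 in lipolysis and 14 in fatty acid oxidation) and 13 in other roles (2 in cholesterol efflux, 5 in the lipid droplet coat, 6 in uptake and activation).

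The study mapped where Flag-tagged OTUD3, a deubiquitinase, sits on chromatin in mouse epididymal fat. Mice were given AAV2-Otud3-Flag, an adeno-associated virus carrying Otud3 with a Flag tag, by intraperitoneal injection, and the fat pad was taken 4 weeks later. Chromatin immunoprecipitation with an anti-Flag antibody followed by sequencing (ChIP-seq) gave 3 libraries, numbered 1, 3 and 4, each with a peak list in mm10 coordinates, and 3 input libraries with the same numbers were not analysed here. The labels name adipocytes, but the material is the whole pad, which holds vessels and immune cells as well, and with no RNA measured the cell types could not be checked by expression. Every library comes from mice given the tagged protein, so none without the tag sets a background. The promoter of the vector, the strain and age of the mice, and whether libraries came from separate animals are not given in the sources used here, so the spread between libraries may be technical.

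In adipocytes, citrate leaves the mitochondrion and is turned by ATP citrate lyase, acetyl-CoA carboxylase and fatty acid synthase into palmitate, which elongases and desaturases modify and which is esterified to glycerol and stored in a droplet coated by perilipins. On demand, adipose triglyceride lipase, hormone-sensitive lipase and monoglyceride lipase release the fatty acids, which are exported or burnt in mitochondria after import through the carnitine shuttle. The SREBP transcription factors drive synthesis of fatty acids and sterols, while the ABC transporters ABCA1 and ABCG1 export cholesterol.

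The peak lists held 11871, 6531 and 13496 distinct intervals in replicates 1, 3 and 4. At the summit, the median number of sequenced fragments was 4, 6 and 5. The authors' caller put q above 0.5 for 83.9%, 91.2% and 93.3% of the peaks, so most peaks are weak evidence on their own. Fold enrichment, p and q of a peak are the authors' values. Exons, introns and UTRs could not be told apart, since the gene table lists none. A gene is counted below as having a peak in a library when a summit lay inside it or within 5 kb of it.

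More of the lipid genes had such a peak than protein-coding genes in general, in each of the 3 libraries. In replicate 1 it was 25 of 54 (46.3%), against 25.2% of all protein-coding genes. In replicate 3 it was 16 of 54 (29.6%), against 15.8%. In replicate 4 it was 23 of 54 (42.6%), against 23.8%. The mean over the libraries was 39.5% ± 8.75 (SD, n = 3).

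Gene length enters this count, since a longer gene can hold more summits. For each lipid gene the 1000 other protein-coding genes nearest to it in length were therefore taken as its background, called genes of like length below. Averaged over the 54 genes, 27.9%, 17.4% and 26.6% of genes of like length had a peak in replicates 1, 3 and 4. The lipid genes lay above this by 18.4, 12.2 and 15.9 percentage points (mean 15.5 ± 3.14 SD, n = 3). No test was made of this difference, because the genes were chosen with earlier results known. Without the 6 members already known at the outset for peaks in all 3 lists or for overlapping peaks (Acaca, Abca1, Abcg1, Cd36, Fads6 and Acacb), the difference was 11.8 ± 4.28 percentage points. At the peaks with an authors' q of at most 0.5 it was 7.72 ± 5.89.

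**Figure D1:**
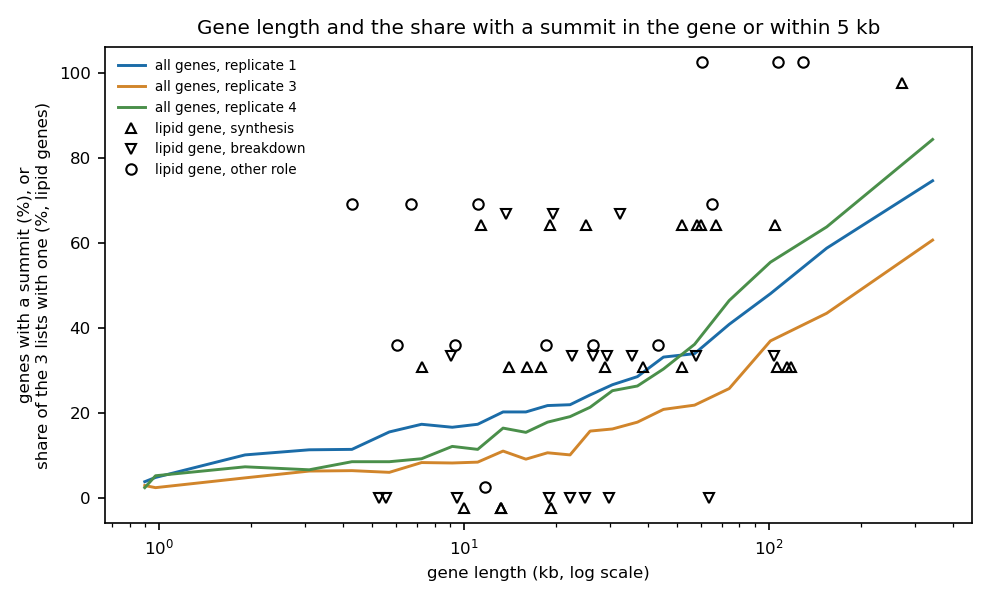
Gene length in kb on a log axis against the share of protein-coding genes with a summit in the gene or within 5 kb (lines, groups of 1000 genes of neighbouring length, 1 line for each library) and, for each lipid gene, the share of the 3 lists that held one (open symbols, shifted up or down by class so that they can be told apart). The share of all genes climbs with length in every library, and several lipid genes under 20 kb had a peak in 2 lists.

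The surroundings of the lipid genes also held somewhat more summits. Inside the genes and their 5 kb flanks there were 12.8, 8.19 and 12.1 summits per Mb in replicates 1, 3 and 4, and at 5 to 100 kb from the same genes 9.84, 5.07 and 6.43. The same densities around all protein-coding genes were 6.32, 3.53 and 6.35 per Mb in the window and 7.29, 3.61 and 6.26 per Mb at 5 to 100 kb. The ratio of window to surroundings was 1.60 ± 0.290 for the lipid genes and 0.953 ± 0.0774 for all genes (SD, n = 3). The lipid gene windows include the summits of the 6 members already known for their peaks at the outset. The ratio is therefore not independent of the choice of genes, and it was not computed without them. Neighbouring genes share stretches in these sums. The part of the denser surroundings in the count of lipid genes was not tested.

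Across the libraries, 4 lipid genes (7.41%) had a peak in all 3 lists, against 4.4% of all genes and 3.52% of genes of like length. These 4, Acaca, Abca1, Abcg1 and Cd36, were already known for this when the genes were chosen. Their count is therefore not evidence about the set. At least 2 lists marked 19 genes (35.2%), against 16.3% of all genes and 17.8% of genes of like length. The 19 include these 4 as well as Fads6 and Acacb, which were known for overlapping peaks when the genes were chosen. No list marked 13 genes (24.1%), against 55.8% of all genes and 49.4% of genes of like length. Genes already known for their peaks could not fall among these 13, so neither count is independent of the choice of genes. The remaining 22 genes had a peak in 1 list.

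**Figure D2:**
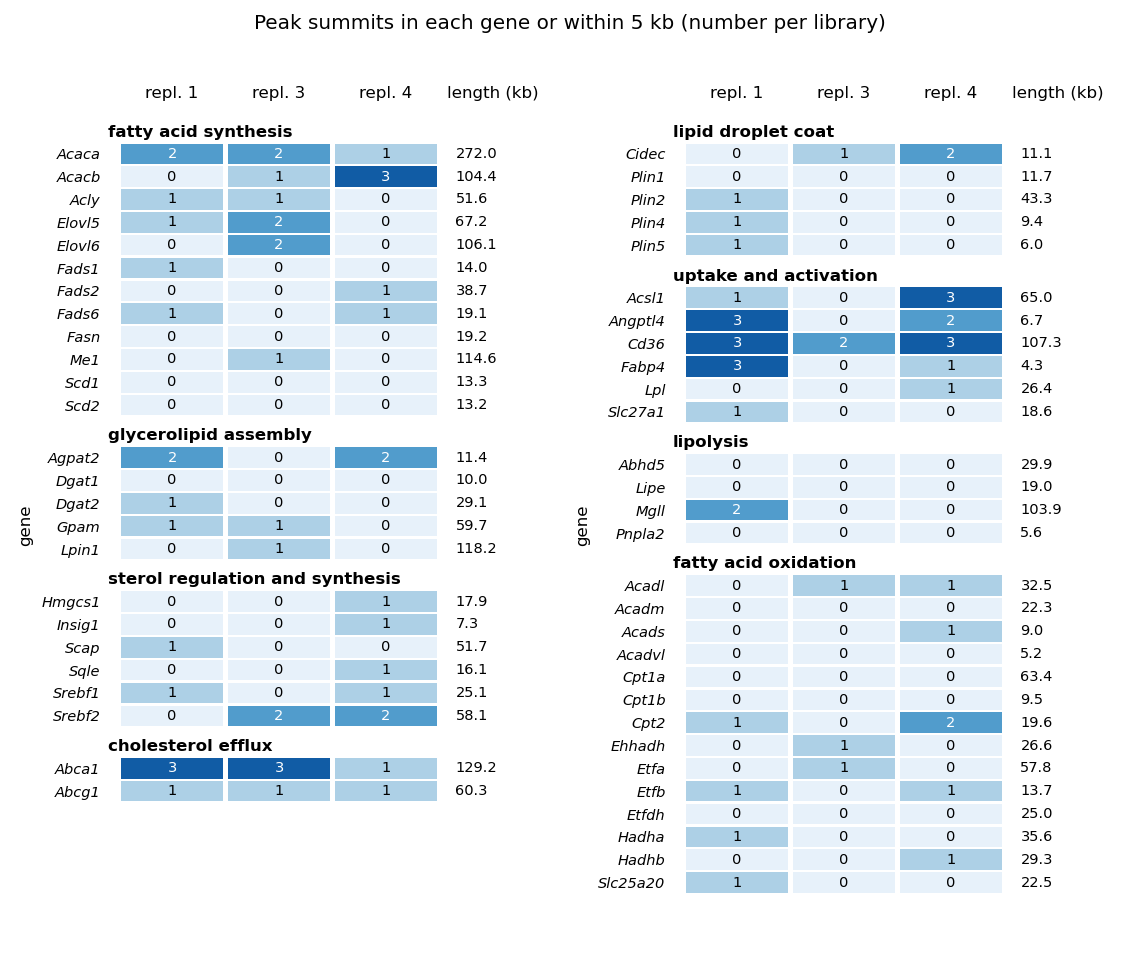
Number of peak summits in each of the 54 genes or within 5 kb, by library (columns) and role (blocks), with the gene's length in kb. Darker cells hold more summits. Acaca, Abca1, Abcg1 and Cd36 have a summit in every column, while the lipolysis block is empty except for Mgll in replicate 1.

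Among the 12 genes of fatty acid synthesis, 5, 6 and 4 had a peak in replicates 1, 3 and 4, where genes of like length would give 4.19, 2.80 and 4.34. Acaca, acetyl-CoA carboxylase 1, which commits acetyl-CoA to fatty acid synthesis, had 2, 2 and 1 summits, all inside its 272 kb at chr11:84129635-84401651, 1 of them also inside the overlapping gene Gm11437. The closest of them in different libraries were 16.8 kb apart, so no site recurred, and 33.4% of genes of like length had at least as many summits. The most upstream, in replicate 4, lay 4.94 kb inside the gene from its lower-coordinate end.

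Acacb, the carboxylase of the outer mitochondrial membrane, whose product malonyl-CoA holds back the carnitine shuttle, had 0, 1 and 3 summits in replicates 1, 3 and 4. It held the only peak of the 54 genes with a q below 0.05, against 0.247% of all protein-coding genes with such a peak in any list. That peak, in replicate 4 at chr5:114172912-114173344, had a fold of 3.48 from 20 fragments (95% exact Poisson interval 12.2 to 30.9, counting error only) and q = 0.0192. In replicate 3 an overlapping peak had a fold of 2.27 from 24 fragments (q = 0.745), which is the lowest fold of any peak on these genes in that list. The local background there was 10.01 fragments in replicate 3 and 5.03 in replicate 4, far above the lowest background of those lists, 1.17 and 0.839. Replicate 1 had no summit in Acacb.

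Fads6, which belongs with the desaturases of fatty acids, had 1, 0 and 1 summits. It and Acacb were the only lipid genes where peaks of 2 lists overlapped, 2 of 54 against 0.534% of all protein-coding genes. Both were already known for this when the genes were chosen, so the count is not evidence about the set. The summits of Fads6 lay 69 bp apart, inside a gene of 19.1 kb on the minus strand (chr11:115278626-115297731), 4.99 and 5.06 kb from its lower-coordinate end, which is the downstream one. Replicate 1 gave a fold of 4.05 from 7 fragments (q = 0.342). Replicate 4 gave 4.81 from 8 fragments (95% exact Poisson interval 3.45 to 15.8, q = 0.0541). These folds stood at the 90.0 and 99.5 percentiles of their lists. Replicate 3, the list with the fewest peaks, had none there.

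The other synthesis enzymes varied. Acly, ATP citrate lyase, had 1, 1 and 0 summits, and the one of replicate 3 lay outside the gene and inside its neighbour Klhl11. Elovl5, an elongase of polyunsaturated fatty acids, had 1, 2 and 0 summits, and Elovl6, which elongates palmitate, had 0, 2 and 0. Me1, the malic enzyme that supplies NADPH, had 0, 1 and 0 although it spans 115 kb. Fads1 and Fads2, the front-end desaturases, each had 1 summit, in replicate 1 and in replicate 4. Fasn, the fatty acid synthase, and the stearoyl-CoA desaturases Scd1 and Scd2 had 0 summits in every library. With lengths of 13.2 to 19.2 kb, they are genes of which 58.3% to 61.6% of like length also had none.

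In glycerolipid assembly, 3, 2 and 1 of 5 genes had a peak, where genes of like length would give 1.48, 0.965 and 1.42, so replicate 4 lay below its background. Agpat2, the acyltransferase that makes phosphatidic acid and is essential for fat depots, had 2, 0 and 2 summits at chr2:26593057-26604417, a gene of 11.4 kb. Of its genes of like length, 0.3% had at least 4. Its strongest peak was in replicate 1, with a fold of 4.90 from 6 fragments (95% exact Poisson interval 2.20 to 13.1, q = 0.0977). In replicate 4 the nearest summit was 1.14 kb away, with a fold of 3.74 from 6 fragments (q = 0.644). Of the 2 in replicate 1, the other lay outside the gene and inside Egfl7. Gpam, the first acyltransferase of the pathway, had 1, 1 and 0 summits, 32.2 kb apart. Lpin1, the phosphatidate phosphatase lipin 1, had 0, 1 and 0, Dgat2 had 1, 0 and 0, and Dgat1 had 0 in every library. DGAT1 and DGAT2 catalyse the last step to triglyceride.

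The sterol genes were uneven between libraries, with 2, 1 and 5 of 6 genes marked, where genes of like length would give 1.48, 0.845 and 1.33. Srebf2, the transcription factor of sterol synthesis, had 0, 2 and 2 summits. They were at least 11.4 kb apart between libraries, and the upstream one of replicate 4 lay nearer to Ccdc134. Srebf1, the factor of fatty acid synthesis, had 1, 0 and 1 summits. The peak of replicate 1 had 6 fragments and was enriched 4.59-fold (q = 0.156), and that of replicate 4, 18.9 kb away, had 7 and was enriched 4.13-fold (q = 0.262). They stood at the 98.4 and 96.2 percentiles of fold in those lists.

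Scap, the escort protein of SREBP, had a summit in replicate 1 alone, 3.61 kb outside the gene. Insig1, which retains SCAP in the endoplasmic reticulum, Hmgcs1, the cytosolic HMG-CoA synthase, and Sqle, squalene epoxidase, each had 1 summit in replicate 4 alone. That of Sqle lay inside its neighbour Washc5. The folds of these 3 peaks were 3.30, 2.97 and 2.94, with q from 0.705 to 0.875.

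Both genes of cholesterol efflux had a peak in every library, where genes of like length would give 0.885, 0.642 and 0.974 of 2. Both were already known for this when the genes were chosen. Abca1, a gene of 129 kb at chr4:53030789-53159988, encodes the transporter that loads cholesterol and phospholipid onto apolipoprotein A-I. It had 3, 3 and 1 summits, and 3.5% of genes of like length had at least as many. The closest 2 summits of different libraries were 1.77 kb apart, both outside the gene beyond its downstream end, enriched 3.36-fold (replicate 1) and 3.62-fold (replicate 3). Abcg1, which passes cholesterol to high-density lipoprotein, had 1 summit in each library, with folds of 3.90, 3.19 and 3.74 and q of 0.342, 0.950 and 0.644. They were at least 4.67 kb apart, so here too the gene recurred and the site did not.

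Genes of fatty acid uptake and activation were marked more often in replicates 1 and 4 than in replicate 3. The counts were 5, 1 and 5 of 6 genes in replicates 1, 3 and 4, where genes of like length would give 1.57, 1.01 and 1.52. Replicate 3 therefore stood at the background. Cd36, the fatty acid translocase, had 3, 2 and 3 summits, the highest total of the 54 genes. It spans 107 kb at chr5:17781690-17888959, and 1 summit of replicate 1 lay 3.54 kb outside it. At least as many summits were found in 1.2% of genes of like length. The closest summits of different libraries were 6.78 kb apart, and folds ran from 2.81 to 3.55.

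Angptl4, a secreted inhibitor of lipoprotein lipase and a known target of PPAR factors, and Fabp4, the fatty acid binding protein of adipocytes, are short genes with several summits each, 6.68 kb at chr17:33774900-33781575 and 4.28 kb at chr3:10204342-10208616. Angptl4 had 3, 0 and 2 summits and Fabp4 had 3, 0 and 1. Among protein-coding genes of 10 kb or shorter, a cut chosen after these values were seen, 0.391% had 4 or more summits over the 3 lists. Among the 9 lipid genes of that length, these 2 did. Their own genes of like length had at least as many summits in 0.1% and 0.2% of cases.

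At Angptl4 the strongest peak was in replicate 4, 63 bp inside one gene end at chr17:33781357-33781591, with a fold of 4.60 from 9 fragments (95% exact Poisson interval 4.12 to 17.1, q = 0.0645). The other peak of that library lay near the middle of the gene (fold 3.71 from 8 fragments, q = 0.485). The 3 peaks of replicate 1 had folds of 2.84, 3.55 and 3.90 from 3, 4 and 6 fragments. The closest summits of replicates 1 and 4 were 845 bp apart and their peaks did not overlap. At Fabp4 the peaks of replicate 1 had folds of 3.55, 3.34 and 3.94 from 4, 5 and 6 fragments, and the one with a fold of 3.34 was 819 bp wide, against a median width of 245 bp in that list. Of the 4 summits, 1 lay inside the gene. The summit of replicate 4 lay at the opposite side, 3.58 kb from the nearest one of replicate 1, with a fold of 3.58 from 6 fragments (q = 0.644).

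**Figure D3:**
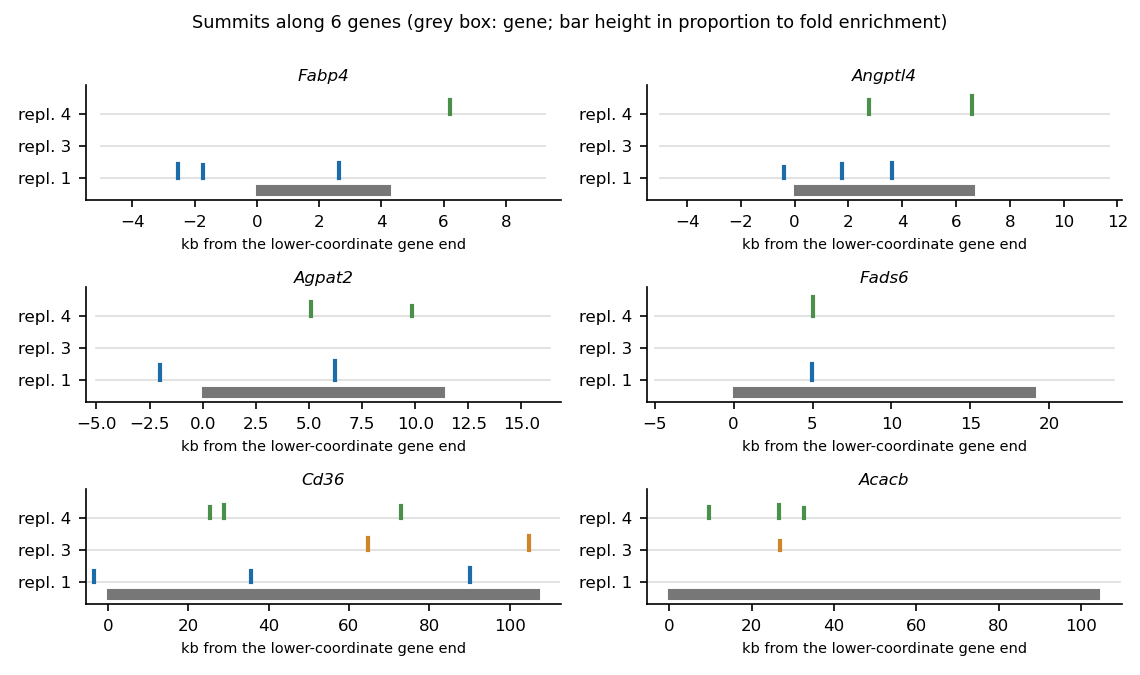
Position of peak summits along Fabp4, Angptl4, Agpat2, Fads6, Cd36 and Acacb, in kb from the gene's lower-coordinate end, with 1 row for each library and bar height in proportion to fold enrichment. The grey box is the gene. Summits of 2 libraries coincide in Fads6 and Acacb, and are spread out in the other 4 genes.

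The other genes of this role had fewer. Acsl1, the acyl-CoA synthetase that traps fatty acids in the cell, had 1, 0 and 3 summits in 65.0 kb. Slc27a1, a fatty acid transport protein, had 1, 0 and 0, and Lpl, lipoprotein lipase, had 0, 0 and 1 (fold 3.49, q = 0.644). In the droplet coat, 3, 1 and 1 of 5 genes had a peak, where genes of like length would give 1.01, 0.524 and 0.734. Cidec, which fuses droplets, had 0, 1 and 2 summits. The 2 that were closest between libraries, 671 bp apart, lay outside the gene and nearer to Rpusd3, enriched 3.95-fold (replicate 3) and 2.45-fold (replicate 4).

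Plin4 and Plin5 are neighbours and shared 1 peak of replicate 1, inside Plin4, 561 bp wide, with a fold of 4.53 from 6 fragments (q = 0.186). Plin2, the perilipin found on droplets of most cells, had 1, 0 and 0 summits. Plin1, the main perilipin of adipocytes, had 0 in every library.

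Lipolysis had the fewest genes marked of the 8 roles. Of its 4 genes, 1, 0 and 0 had a summit, where genes of like length would give 1.12, 0.705 and 1.06. Pnpla2, adipose triglyceride lipase, its coactivator Abhd5 and Lipe, hormone-sensitive lipase, had 0 in every library. They span 5.56, 29.9 and 19.0 kb, and 74.4%, 48.7% and 58.7% of their genes of like length had none. Mgll, monoglyceride lipase, had 2 summits in replicate 1 within its 104 kb, with folds of 3.74 and 3.41.

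In fatty acid oxidation, 4, 3 and 5 of 14 genes had a peak, where genes of like length would give 3.30, 1.92 and 3.01. No gene of the role was marked in all 3 lists. The carnitine shuttle was split: Cpt2, the inner carnitine palmitoyltransferase, a gene of 19.6 kb, had 1, 0 and 2 summits. Of its genes of like length, 3.9% had at least as many. The summit of replicate 1 and 1 of those of replicate 4 lay outside Cpt2, by 2.11 and 2.74 kb. Slc25a20, the carnitine carrier, had 1, 0 and 0. The outer palmitoyltransferases Cpt1a and Cpt1b had 0 in every library. Cpt1a, at 63.4 kb, was the only one of the 17 lipid genes of 50 kb or longer without a peak, whereas 20.1% of all protein-coding genes of that length had none.

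Of the acyl-CoA dehydrogenases, Acadl for long chains had 0, 1 and 1 summits, 24.3 kb apart, and Acads for short chains had 0, 0 and 1, inside its neighbour Rpl37rt. Acadm and Acadvl, for medium and very long chains, had 0 in every library. Hadha and Hadhb, adjacent genes of the trifunctional protein, had 1, 0 and 0 and 0, 0 and 1 summits, and Ehhadh, the bifunctional enzyme of peroxisomes, had 0, 1 and 0. Of the electron transfer flavoprotein genes, Etfa had 0, 1 and 0 (fold 4.14 from 8 fragments, q = 0.459), Etfb had 1, 0 and 1, and Etfdh had 0 throughout.

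Genes of synthesis had a peak more often than genes of breakdown in each library. The shares were 43.5%, 39.1% and 43.5% of the 23 synthesis genes and 27.8%, 16.7% and 27.8% of the 18 breakdown genes in replicates 1, 3 and 4. The difference was 15.7, 22.5 and 15.7 percentage points (mean 18.0 ± 3.90 SD, n = 3). Part of it goes with length: the median synthesis gene spans 29.1 kb and the median breakdown gene 23.7 kb, and the shares in their genes of like length differed by 6.71 ± 1.36 percentage points. The difference beyond that was 9.21, 17.0 and 7.53 points (mean 11.2 ± 5.05 SD, n = 3). Acaca, Acacb and Fads6, known for their peaks at the outset, are synthesis genes, and no breakdown gene was so known. Without the 6 members known at the outset, the difference was 12.2, 18.3 and 7.22 points before any allowance for length. The contrast is therefore not independent of the choice of genes. It was also uneven between roles. The mean excess over genes of like length was 10.2 points for fatty acid synthesis, 14.2 for glycerolipid assembly and 24.1 for sterol genes. For oxidation it was 8.97 points, and for the 4 lipolysis genes -15.8. The sterol genes stood 8.63, 2.58 and 61.2 points above in replicates 1, 3 and 4.

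Counted as summits per Mb of gene and 5 kb flanks, the contrast was absent in replicate 1, with 8.17 for synthesis and 8.45 for breakdown. It was 8.86 against 4.22 in replicate 3 and 9.54 against 8.45 in replicate 4. The ratio to the density at 5 to 100 kb was 0.992, 1.68 and 1.60 for synthesis and 0.996, 0.802 and 1.16 for breakdown in replicates 1, 3 and 4. The contrast in shares was also smaller when peaks were selected by fold or p. With peaks of at least 3-fold alone it was 6.12 percentage points before any allowance for length. With an equal number of peaks of lowest p from each list, 6531, it was 10.1 points and ran from -1.69 in replicate 1 to 22.5 in replicate 3. Breakdown genes as a class lay close to genes of like length, 3.47 ± 1.55 percentage points above, synthesis genes 14.7 ± 3.78 above, and the 13 genes of efflux, droplet coat and uptake 33.7 ± 18.3 above (SD, n = 3). The last group varied most between libraries, from 14.1 points in replicate 3 to 50.3 in replicate 1. It includes Abca1, Abcg1 and Cd36, which were known at the outset for peaks in all 3 lists. Its excess is therefore not independent of the choice of genes.

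**Figure D4:**
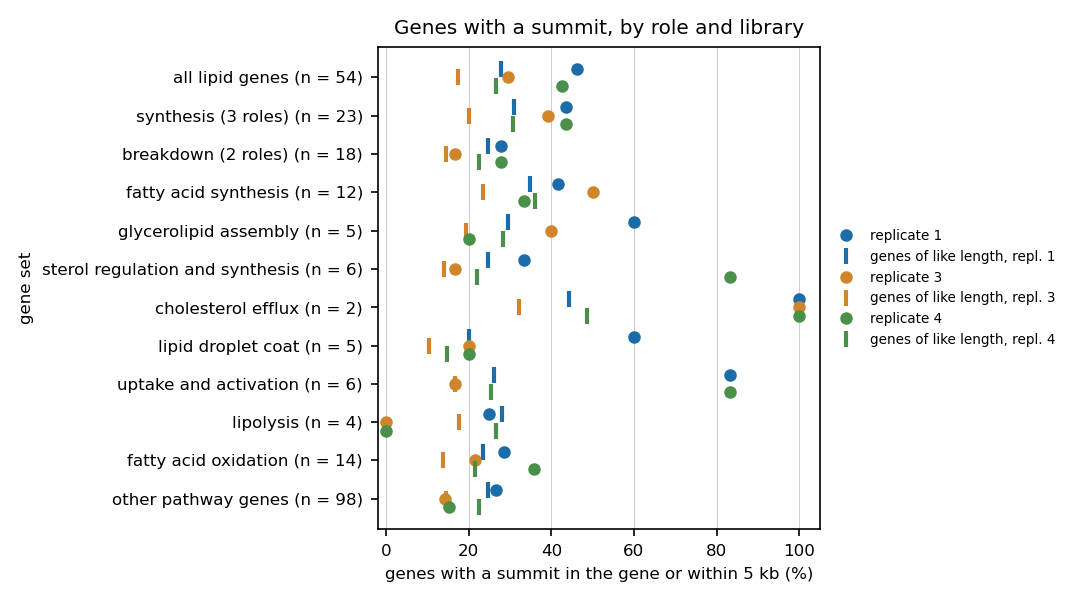
Percent of genes with a summit in the gene or within 5 kb, by gene set (rows) and library (coloured points), with the mean share in genes of like length as a vertical tick of the same colour. Points of synthesis lie right of their ticks in all 3 libraries, those of breakdown close to them, and those of the other pathway genes near them in replicates 1 and 3 and left of them in replicate 4.

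Other genes of the same pathways lay near their background. A list of 98 further genes, among them the rest of the sterol pathway, the remaining acyltransferases and the other enzymes of oxidation, had a peak in 26, 14 and 15 cases (26.5%, 14.3% and 15.3%) in replicates 1, 3 and 4. Genes of like length would give 24.1, 14.1 and 22.1, and the difference was -1.83 ± 4.81 percentage points (SD, n = 3). No gene of the 98 had a peak in all 3 lists, and 9 (9.18%) had one in 2. Of their genes of like length, 2.07% had a peak in all 3 lists and 13.7% in at least 2. Both sets of genes were drawn up with earlier results known, and the genes known for peaks in all 3 lists were put among the members. The further genes are therefore not an independent comparison. Of the 12 further fatty acid synthesis genes, 0, 0 and 1 were marked, where genes of like length would give 2.93, 1.78 and 2.67. Of 21 further oxidation genes, 8, 3 and 3 were marked, above the 5.51 from like length in replicate 1 and below the 3.26 and 5.18 in replicates 3 and 4. Mean differences from like length were -17.7 points for further fatty acid synthesis genes, 2.45 for glycerolipid assembly and -0.9 for sterol genes. They were 0.081 for oxidation and -12.8 for lipolysis, so synthesis roles did not stand above breakdown roles throughout.

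The further genes of sterol regulation and synthesis gave 3, 5 and 4 of 23, where genes of like length would give 5.25, 2.93 and 4.45, and Lss, lanosterol synthase, was in 2 lists. The 6 further efflux genes gave 4, 2 and 0, where genes of like length would give 1.41, 0.801 and 1.30. Fabp5, a gene of 4.03 kb for a fatty acid binding protein like Fabp4, had 1, 1 and 0 summits. Acox3, a peroxisomal acyl-CoA oxidase, had 2, 0 and 2. The difference between the listed and the further genes was not tested.

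Several short genes were marked in more than 1 list. Of the 24 lipid genes of 20 kb or shorter, 7 had a peak in 2 lists (29.2%), against 4.3% of all protein-coding genes of that length in at least 2 lists. They are Agpat2, Fads6, Cpt2, Etfb, Cidec, Angptl4 and Fabp4. Of these, Fads6 was already known for overlapping peaks when the genes were chosen. In 7 of 7 the pair of lists included replicate 4, and in 6 of 7 it was replicates 1 and 4. Replicate 3 had the fewest peaks. Among 1000 genes with a median length of 11.1 kb, 17.3%, 8.4% and 11.4% had a peak in replicates 1, 3 and 4. How the pairs fall among all short genes was not counted, so this pattern cannot be called particular to lipid genes.

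At gene ends peaks were rare. A summit within 1 kb of either end was found for 5 lipid genes in replicate 1 (9.26%, against 3.52% of all protein-coding genes), 0 in replicate 3 (against 1.37%) and 1 in replicate 4 (1.85%, against 1.97%). The mean was 3.70% ± 4.90 (SD, n = 3), and 0.926% without replicate 1, so the count rests on that library. The 5 genes were Angptl4, Gpam, Abca1, Plin2 and Etfb, and the gene of replicate 4 was Angptl4 again. In Gpam and Abca1 it was the downstream end, 799 and 417 bp away.

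Start sites were read from a RefSeq promoter table of build GRCm38.p6, which lists 55 starts for 43 of the 54 genes. A summit lay within 1 kb of a listed start in 5 genes, always downstream of it: Etfb by 180 bp, Slc27a1 by 399 bp and Plin2 by 734 bp in replicate 1, Lpin1 by 361 bp in replicate 3 and Srebf1 by 202 bp in replicate 4. The share of all genes with a summit that near a listed start was not counted. Whether 5 genes is more or fewer than usual can therefore not be said. Only the peak of Etfb, with a fold of 3.16 from 4 fragments (q = 0.651), overlapped the 300 bases around a start, by 100 bp. The starts listed here for Srebf1, Slc27a1 and Lpin1 are internal ones, and the Lpin1 summit lay 43.3 kb from the nearest gene end. The peak of Srebf1 began outside the 300 bases. The promoters of Etfb and Srebf1 are shown because they are the ones nearest to a summit. Each runs from 250 bases before the start to 50 after it, in the direction of the gene, and capitals mark the motifs found.

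Etfb, plus strand, chr7:43443822-43444121: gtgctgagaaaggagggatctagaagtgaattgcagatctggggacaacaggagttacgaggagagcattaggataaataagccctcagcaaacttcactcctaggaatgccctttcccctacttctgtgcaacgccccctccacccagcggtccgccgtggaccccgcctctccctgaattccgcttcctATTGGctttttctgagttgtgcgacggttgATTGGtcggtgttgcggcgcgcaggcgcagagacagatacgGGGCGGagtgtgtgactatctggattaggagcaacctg
Srebf1, minus strand, chr11:60222532-60222831: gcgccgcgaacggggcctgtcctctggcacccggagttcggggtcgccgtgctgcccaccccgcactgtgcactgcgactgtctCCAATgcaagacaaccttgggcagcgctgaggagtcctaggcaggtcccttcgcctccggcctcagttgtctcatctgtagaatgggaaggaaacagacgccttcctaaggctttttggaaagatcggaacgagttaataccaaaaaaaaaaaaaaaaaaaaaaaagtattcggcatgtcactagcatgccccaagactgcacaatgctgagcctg

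The last 100 bases of the Etfb window lie in the peak, and they hold a GC box (GGGCGG), at position 12 counted from the start as 0, and the second of 2 CCAAT boxes, at position -29. The other CCAAT box is at position -59. Both CCAAT boxes read as the reverse complement on this strand. The Srebf1 window holds 1 CCAAT box, at position -166. These motifs were searched on both strands together with the E-box CACGTG, the sterol element TCACNCCAC, TATAAA, the nuclear receptor motif AGGTCA and the C/EBP motif TTGCNNAA, and those in these windows do not overlap each other. A CCAAT box is in 41.8% of the 55 windows of lipid genes and in 37.4% of all 32851 windows of the table. A GC box is in 65.5% against 35.7%, an E-box in 16.4% against 7.15% and the sterol element in 5.45% against 1.24%, the last being 3 windows. The nuclear receptor motif is in 29.1% against 16.3%. TATAAA and the C/EBP motif are less frequent in the lipid gene windows, both in 7.27%, against 13.6% and 10.8%. A match says only that the letters occur.

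The peaks on lipid genes were mostly weak, though a little stronger than the median of their lists. There were 92 distinct peaks, 73 with their summit inside a lipid gene and 19 in a 5 kb flank, and 7 of them lay nearer to another protein-coding gene. Their median fold was 3.50, 3.10 and 3.23 in replicates 1, 3 and 4, against 3.20, 3.00 and 3.02 in the whole lists, which places the median peak at the 66.4, 56.0 and 63.3 percentiles of fold. The median fragments were 4, 6 and 5, the same as in the lists. A q above 0.5 was given to 68.6%, 87.0% and 85.3% of these peaks, against 83.9%, 91.2% and 93.3% of the lists.

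After Acacb, Fads6, Angptl4 and Agpat2, the lowest q belonged to Srebf1 and Plin4 (0.156 and 0.186, both in replicate 1) and then to Srebf1 in replicate 4. At this depth a single peak on these genes was mostly not distinguishable from background, and the recurrence of a gene across libraries came with peaks that did not overlap in 17 of the 19 genes marked in at least 2 lists. Of all protein-coding genes, 16.3% were marked in at least 2 lists and 0.534% had overlapping peaks of 2 lists. Recurrence without overlap was therefore the usual case in these lists and is not particular to lipid genes.

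**Figure D5:**
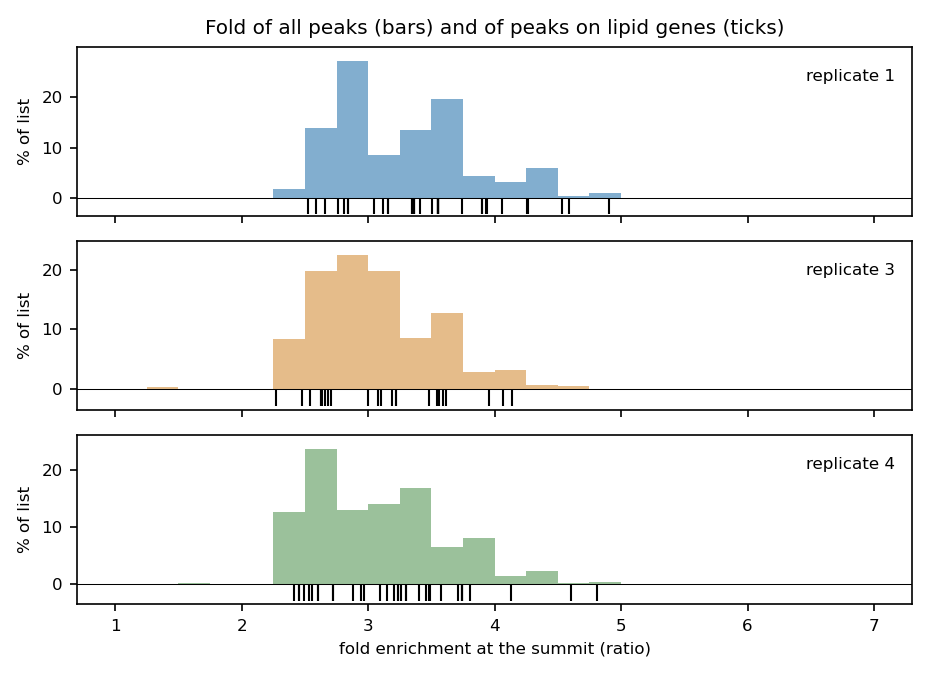
Fold enrichment at the summit for all peaks of each library (bars, percent of the list per 0.25 of fold) and for the peaks on lipid genes (black ticks under the bars). The ticks spread over the range of the bars, from 2.27 to 4.90, and none reaches 5.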

How the data were processed

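The submitters' processing notes name build mm10, the peak caller MACS2 2.1.0, the aligner BWA 0.7.12 and the read trimmer fastp 0.19.11. The deposited peak lists give, for 1 library each, the authors' fold enrichment ratio, the authors' −log10 p-value and −log10 q-value, an integer score deposited beside them, and the offset of the summit. The calling threshold and whether the input was used as control are not given in the sources used here. The labels name single-end and paired-end sequencing of 75 bp.

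Intervals with several summits were reduced to the summit of lowest p. A summit was placed in a gene by start and end in the RefSeq table, which gives no exons. Build mm10 is GRCm38, and all 54 members and 98 further genes matched by symbol. Fragments at a summit were solved from fold and p under a Poisson model, with a whole number matching the p within 0.001 on the log10 scale for 100% of peaks. Library depth is not stated in the peak lists, where the lowest background was 0.407, 1.17 and 0.839 fragments. Overlap meant at least 1 bp.

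The members, their roles and the lists were chosen with earlier results of these data known, so no p was computed over them. Genes named are those with a summit in all 3 lists or at a gene end, those with overlapping peaks, the peaks of lowest q, members of 20 kb or shorter marked in 2 lists, members of 50 kb or longer marked in none, and others by role. The counting was tested on simulated data. Python 3.11.15, pandas 2.3.3, numpy 2.4.6 and scipy 1.17.1 were used.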

Additional observations from a re-analysis of the deposited data

How the results depend on the processing

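The share of lipid genes with a summit within 5 kb (39.5%) fell to 29.6% with peaks of at least 3-fold, 11.1% at a q of at most 0.5 and 0% at a q of at most 1e-05, and was 53.1% with a 20 kb window. The share at gene ends (3.70%) was 14.2% with a 3 kb window. The contrast of synthesis and breakdown (18.0 percentage points) was 6.12 with peaks of at least 3-fold, 9.34 at a q of at most 0.5 (-1.21 in the lowest library), 0 at a q of at most 1e-05, 10.1 with equal numbers of peaks, 13.3 with efflux genes added to synthesis and droplet and uptake genes to breakdown, and 12.6 without the 6 members named earlier. The excess over genes of like length (15.5 points) was 7.72 at a q of at most 0.5, 11.8 without those 6 members and -0.00556 at a q of at most 1e-05, where 0 lipid genes are left. Overlapping peaks of 2 lists (2 genes) were 1 gene with summits within 100 bp. Equal numbers of peaks and the removal of 6 members were chosen after seeing the data. The other alternatives moved these values by less than the spread between libraries: every summit line, peak intervals in place of summits, the gene body alone, a 1 kb window, each summit given to 1 gene, 500 bp at gene ends, 250 genes of like length, 50% reciprocal overlap, and leaving out each replicate. No paired analysis was possible because the numbers 1, 3 and 4 are shared with input libraries that were not analysed here, and the lists form 1 group. The causes of these shifts were not tested, beyond the fewer peaks left by a stricter threshold. A peak of 3 to 9 fragments cannot show whether a gene without one lacks enrichment.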

Other observations

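Markers of cell types in the fat pad give a further view of where peaks lay, though peaks measure no expression. Of 6 adipocyte markers (Adipoq, Lep, Plin1, Cidec, Fabp4 and Lipe, of which 4 are among the lipid genes), 1, 1 and 2 had a summit in the gene or within 5 kb in replicates 1, 3 and 4, where genes of like length would give 1.09, 0.533 and 0.770. Of 5 macrophage markers, 3, 2 and 2 had one, against 1.61, 1.12 and 1.66. Of 4 endothelial markers it was 3, 0 and 0, against 1.55, 1.05 and 1.58. Of 3 mesothelial markers it was 0 in every library, against 0.633, 0.335 and 0.484, which is under 1 gene.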
